A study of Homo sapiens with 19 samples.

Results

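Hermes 3A melanocytes in which BRG1 had been silenced were compared directly with Hermes 3A melanocytes in which MITF had been silenced, to find the genes and pathways that tell the 2 knockdowns apart. The comparison used 6 of the 19 RNA-seq samples of the series, chosen by their labels: 3 labelled shBRG1 and 3 labelled shMITF. It covered the 33619 genes that the deposited counts list for both groups, of 44717 gene identifiers in the series. Hermes 3A is an immortal but untransformed human melanocyte line, grown in medium with TPA, cholera toxin, stem cell factor and endothelin-1. The cells were infected with pLKO lentiviral vectors that express 1 short hairpin RNA each, against BRG1 (shBRG1), against MITF (shMITF) or a scramble sequence (shSCR), so each knockdown rests on a single hairpin. The series also holds 3 shSCR samples of the same line, whose levels are given beside the contrast, and 10 samples of the 501Mel melanoma line. Total RNA was depleted of ribosomal RNA, normalized with a nuclease that removes part of the commonest cDNAs, and sequenced. The time between infection and RNA extraction is not given in the sources used here.

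BRG1, encoded by SMARCA4, is an ATPase that drives the SWI/SNF (BAF and PBAF) complexes, which move nucleosomes and open chromatin for transcription factors. MITF is the basic helix-loop-helix leucine zipper factor that controls pigment cell identity, melanin synthesis, survival and proliferation, and it binds E-box sequences in the promoters of its targets. BRG1 is a known cofactor of MITF in pigment cells, so the direct contrast describes where the knockdowns of the remodeller and of the factor differ. MITF RNA was below the scramble control in both knockdowns, and its difference between them did not pass the test, as described below. Whether a difference came from the loss of BRG1, the loss of MITF or other effects of the hairpins was not tested.

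Between 29158502 and 61804675 reads were counted on genes in each of the 6 libraries. The shMITF counts list 34033 genes, whereas the shBRG1 and shSCR counts share 1 list of 42224 genes. Any difference in how the shMITF counts were made cannot be told apart from the knockdown. The shMITF libraries also varied more among themselves: the coefficient of variation shared by all genes, beyond counting noise, was 31.4% for shMITF libraries, 5.96% for shBRG1 libraries and 5.55% for shSCR libraries. All 7 melanocyte markers were detected, with summed levels of 28244 to 29320 CPM with shBRG1, 24212 to 32127 CPM with shMITF and 58780 to 60086 CPM with shSCR. CPM are read counts relative to the library total after TMM scaling, which brings the bulk of genes to the same level across libraries. Of the other cell types, 4 of 8 keratinocyte markers (KRT5, KRT14, KRT1 and KRT6A) had no count in any of the 9 libraries, and 6 immune markers together stayed between 0.138 and 0.578 CPM. Summed fibroblast markers ran from 379 to 578 CPM with shMITF and from 394 to 397 CPM with shBRG1, endothelial markers stayed between 9.03 and 13.6 CPM, and Schwann and neural markers ran from 600.0 to 1076 CPM with shMITF and from 720.0 to 739 CPM with shBRG1. None of the tested members of these marker lists was called. The methods say that experiments with these vectors were repeated at least in triplicate, without saying whether the sequenced libraries of a group came from separate infections or cultures. The p-values measure only the spread between these samples, which may be technical.

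The targeted genes were examined first. SMARCA4 (chromosome 19, 10960825 to 11079426 on GRCh38, GENCODE 29) was at 41.3, 43.3 and 44.9 CPM with shBRG1, 139, 228 and 193 CPM with shMITF and 228, 241 and 213 CPM with shSCR. The shBRG1 libraries lay far below all others, and SMARCA4 was lower with shBRG1 than with shMITF (log2 difference -2.11, SE 0.185, adjusted p = 0.0015). MITF (chromosome 3, 69739435 to 69968337) was at 724, 718 and 737 CPM with shBRG1, 430.5, 683 and 512 CPM with shMITF and 947, 978 and 1049 CPM with shSCR. Both knockdowns lay below shSCR, and the shMITF libraries lay below the shBRG1 libraries without overlap, yet shMITF replicate 2 came close to them. The 2 knockdowns did not overlap in 40.5% of all tested genes. The paper, referring to immunoblots of Hermes 3A extracts, reports that MITF expression changed little after BRG1 silencing. The levels here are RNA, and these data hold no protein measurement. The difference in MITF RNA did not pass the test (log2 difference 0.42, SE 0.184, adjusted p = 0.17). It passed without shMITF replicate 2 (log2 difference 0.63, adjusted p = 0.018) and with limma's sample weights (log2 difference 0.43, adjusted p = 0.027). SMARCA2, which encodes the alternative ATPase BRM, was at 67.8, 66.2 and 65.2 CPM with shBRG1 and 51, 96.9 and 76.8 CPM with shMITF and was not called. Of 26 tested SWI/SNF subunit genes only SMARCA4 was called (list median log2 difference -0.13). The MITF relatives TFE3 and TFEB, which share its DNA-binding domain, were not called either: TFE3 was at 68.9, 65.9 and 67.7 CPM with shBRG1 and 71.6, 70.7 and 76 CPM with shMITF, and TFEB was at 1.61, 1.17 and 1.22 CPM with shBRG1 and 1.64, 4.1 and 2.42 CPM with shMITF.

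Of 16927 genes that passed the filter on low counts, 632 (3.73%) were higher and 352 (2.08%) were lower with shBRG1 than with shMITF, at an adjusted p under 0.05 in edgeR's quasi-likelihood test and an absolute log2 difference over 1. The median log2 difference of all tested genes was -0.04. The shares of 3.73% and 2.08% are the baseline for the counts of called members in every list below. Positive differences mean higher with shBRG1, negative ones higher with shMITF. The shBRG1 and shMITF libraries did not overlap in 6860 of all tested genes (40.5%) and in every called gene. A lack of overlap therefore adds nothing to a call. The shSCR levels show from which side a difference arose, as a description with no test. Of the 632 genes higher with shBRG1, 270 (42.7%) had all shBRG1 libraries above and all shMITF libraries below every shSCR library, a layout seen in 3.21% of all tested genes. A further 158 were above shSCR with shBRG1 while shMITF overlapped shSCR, and 96 were below shSCR in both knockdowns but less so with shBRG1. Of the 352 genes lower with shBRG1, 102 (29%) were below shSCR with shBRG1 and above it with shMITF, against 2.46% of all tested genes. Another 96 lay below shSCR with shBRG1 alone, 78 lay above it with shMITF alone and 64 lay above it in both. The called genes were picked for a difference between the knockdowns, which by itself favours layouts with shSCR in between. The shares of all tested genes are therefore no fair baseline for the 42.7% and the 29%. The counts fell without any 1 shBRG1 library. Without shBRG1 replicate 1, 2 or 3 the higher genes numbered 246, 283 and 277 and the lower ones 117, 130 and 129. Without 1 shMITF library there were 704 to 834 and 375 to 474. The test takes 1 spread per gene for both groups, although shMITF libraries varied more than shBRG1 libraries (31.4% against 5.96%). A call lost without a shBRG1 library is therefore no sign that this library was unlike the other shBRG1 libraries. In bulk RNA, fewer cells of one state and less RNA per cell cannot be told apart.

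**Figure D1:**
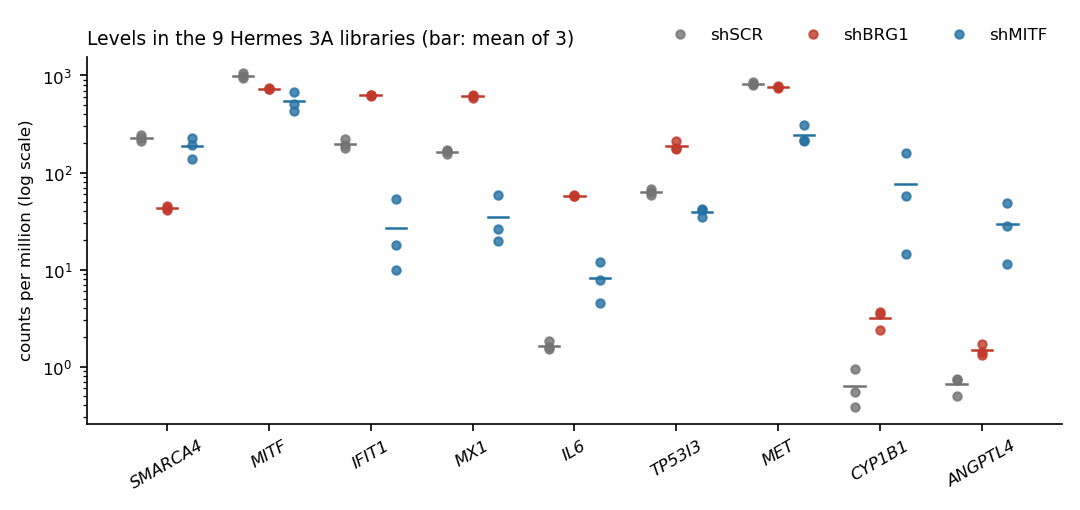
Levels of 9 genes in the 9 Hermes 3A libraries, in TMM-scaled CPM on a log axis; each point is 1 library, each bar the mean of 3, grey for shSCR, red for shBRG1 and blue for shMITF. SMARCA4 is low only in the red points, IFIT1 and MX1 are high in red and low in blue around the grey level, and CYP1B1 and ANGPTL4 are high in blue with a wide spread.

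The interferon-stimulated genes had the highest share of called members among the lists examined. These genes are switched on when interferon receptors signal to transcription factors that bind the interferon-stimulated response element, and their products block viral RNA and protein synthesis. All 36 members were tested: 29 were higher with shBRG1, none was lower and 7 were not called, with a median log2 difference of 2.22 against -0.04 for all genes. Their summed level was 10707, 11400 and 11447 CPM in the shBRG1 libraries in rising order, 5788, 5849 and 5951 CPM with shSCR, and 1159, 2577 and 4238 CPM with shMITF. The 3 groups did not overlap, with shSCR in the middle. In 27 of the 36 genes every shBRG1 library lay above and every shMITF library below the shSCR libraries. This layout was seen in 3.21% of all tested genes and in 42.7% of all genes called higher with shBRG1. Most members were called, so the second share is the closer baseline. Without 1 of the 6 libraries, 21 to 31 members were called higher.

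The response element was searched as GAAANNGAAA on both strands (TTTCNNTTTC on the other) in RefSeq promoter windows of GRCh38.p14, which span 250 bases before and 50 after a start site. Of 26 members with such a window, 17 (65.4%) held it, against 4.38% of 27305 genes with a window and 3.91% of the 11807 tested ones. It was in 13 of 20 called members and in 4 of 6 members that were not called. Among all genes higher with shBRG1, 51 of 446 with a window (11.4%) held it, and among the lower ones 13 of 245 (5.31%). Stretches of 60 bases around a match are shown for 4 called members and for IFI6, which was not called, to show the element in genes whose values follow. The capitals mark the matches in the stretch, and each sequence is written 5′ to 3′ on the strand of its gene.
IFIT1: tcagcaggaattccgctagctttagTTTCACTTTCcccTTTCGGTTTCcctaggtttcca
IFIT3: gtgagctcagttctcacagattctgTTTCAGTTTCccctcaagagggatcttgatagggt
ISG15: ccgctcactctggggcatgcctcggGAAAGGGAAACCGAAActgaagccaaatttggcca
HERC5: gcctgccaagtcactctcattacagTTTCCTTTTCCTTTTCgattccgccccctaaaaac
IFI6: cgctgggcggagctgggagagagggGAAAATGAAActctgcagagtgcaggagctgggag
They lie at chr10:89392482-89392541 (plus strand), chr10:89332410-89332469 (plus), chr1:1013359-1013418 (plus), chr4:88456969-88457028 (plus) and chr1:27672314-27672373 (minus), in the order shown. None of the 5 stretches overlaps an exon of GENCODE 29. A match of letters is a description and no measurement of binding.

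Among the antiviral effectors, IFIT1, which binds viral RNA that lacks a self cap, was at 612, 633 and 633 CPM with shBRG1, 17.8, 9.82 and 53.3 CPM with shMITF and 193, 179.8 and 220.2 CPM with shSCR. The groups were far apart, and the shMITF libraries differed several-fold among themselves (log2 difference 4.54, SE 0.598, adjusted p = 0.0045). MX1, a dynamin-like GTPase that traps viral nucleocapsids, was at 587, 621 and 631 CPM with shBRG1 and 26.1, 19.6 and 59.1 CPM with shMITF (log2 difference 4.14, SE 0.413, adjusted p = 0.0019). ISG15, a ubiquitin-like modifier, was at 764, 861 and 890.0 CPM with shBRG1 and 40.9, 12.1 and 97.6 CPM with shMITF (log2 difference 4.06, SE 0.667, adjusted p = 0.009). In each of these genes shMITF replicate 3 was the highest of its group and still far below shBRG1. The oligoadenylate synthetases OAS1, OAS2 and OAS3, which make the activator of RNase L on double-stranded RNA, were all called: OAS3 was at 538, 577 and 601 CPM with shBRG1 and 36.9, 44.3 and 60.1 CPM with shMITF (3.6, adjusted p = 0.00073), and OAS1 and OAS2 differed by 2.97 and 3.42. OASL, a related protein without that enzyme activity, differed by 3.61. IFIT2, IFIT3, IFIT5, MX2, RSAD2 (viperin), IFI44, IFI44L and XAF1 were also higher, with log2 differences of 3.08, 3.36, 1.4, 4.08, 2.92, 1.95, 3.31 and 2.94. HERC5, the ligase that attaches ISG15 to proteins, was at 118, 127 and 132 CPM with shBRG1 and 22.2, 39 and 32.5 CPM with shMITF (2.01, adjusted p = 0.0019). OASL lost its adjusted p under 0.05 without shBRG1 replicate 1 (adjusted p up to 0.051). RSAD2 lost its adjusted p under 0.05 without any 1 of the 3 shBRG1 libraries (adjusted p up to 0.053). IFI44L lost its adjusted p under 0.05 without any 1 of the 3 shBRG1 libraries and also without shMITF replicate 3 (adjusted p up to 0.069). XAF1 lost its adjusted p under 0.05 without any 1 of the 3 shBRG1 libraries and also without shMITF replicate 2 (adjusted p up to 0.11).

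Most sensors and signalling genes of the same list were higher as well. RIGI, a cytoplasmic sensor of viral RNA, was at 127, 126 and 132 CPM with shBRG1 and 12.4, 7.95 and 16.8 CPM with shMITF (log2 difference 3.38, SE 0.256, adjusted p = 0.0011). IFIH1 (MDA5), the sensor of long double-stranded RNA, was at 138, 142 and 143 CPM with shBRG1 and 26.8, 29.6 and 46.1 CPM with shMITF (2.05, adjusted p = 0.0019). IRF7, which amplifies interferon gene transcription, was at 110.2, 118 and 118 CPM with shBRG1 and 12.1, 12.9 and 27.1 CPM with shMITF (2.73, adjusted p = 0.0025). The groups did not overlap in any of these genes, which holds for every called gene. The lowest shBRG1 library exceeded the highest shMITF library several-fold. STAT2, a signal transducer of the interferon receptors, was at 662, 687 and 693 CPM with shBRG1 and 218, 253 and 302 CPM with shMITF (1.4, adjusted p = 0.0024). IRF9, the DNA-binding partner of STAT2, did not pass the test (1.15, adjusted p = 0.097), with 8.8, 8.99 and 10.1 CPM with shBRG1 and 1.8, 4.22 and 6.6 CPM with shMITF. USP18, which removes ISG15 and restrains the interferon receptor, was higher (2.68, adjusted p = 0.0027).

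The 7 members that were not called were IFI6, IFI27, IRF1, IRF9, BST2, IFITM1 and IFITM2. BST2, which tethers virus particles at the cell surface, was at 40.2, 47.8 and 45.6 CPM with shBRG1 and 10.4, 2.47 and 52 CPM with shMITF, so that shMITF replicate 3 lay above all shBRG1 libraries and replicate 2 far below. IFI6 was at 3138, 3339 and 3268 CPM with shBRG1 and 1316, 181 and 2067 CPM with shMITF and IFITM1 at 16.5, 19.7 and 19.3 CPM with shBRG1 and 7.01, 0.783 and 17.7 CPM with shMITF, again with replicate 2 lowest and replicate 3 highest. IFITM3, which blocks virus entry, was called (1.55, adjusted p = 0.023). IFITM3 lost its adjusted p under 0.05 without any 1 of the 3 shBRG1 libraries (adjusted p up to 0.086). Of 17 tested antigen presentation genes, 3 were higher with shBRG1 and none was lower (median log2 difference -0.0003): the peptide transporter TAP1 at 336, 339.8 and 332 CPM with shBRG1 and 84.8, 85 and 147 CPM with shMITF (1.67, adjusted p = 0.0048), the immunoproteasome subunit PSMB9 (1.08, adjusted p = 0.031) and NLRC5, the activator of class I genes (1.07, adjusted p = 0.044). PSMB9 lost its adjusted p under 0.05 without any 1 of the 3 shBRG1 libraries and also without shMITF replicate 1 or shMITF replicate 2 (adjusted p up to 0.12). NLRC5 lost its adjusted p under 0.05 without any 1 of the 3 shBRG1 libraries and also without shMITF replicate 2 (adjusted p up to 0.14).

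**Figure D2:**
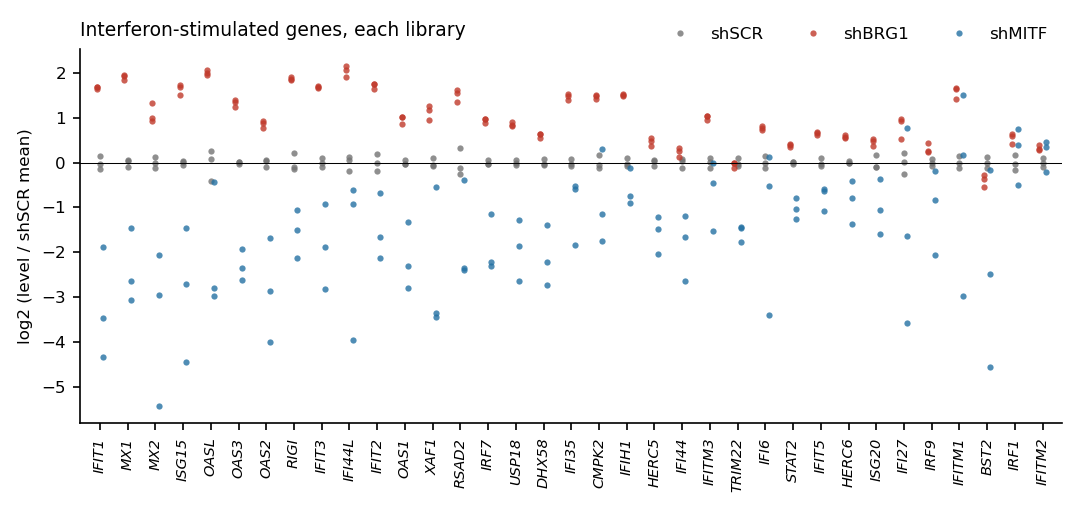
Levels of interferon-stimulated genes in each library as log2 of the level over the mean of the 3 shSCR libraries, ordered by the difference between the knockdowns; grey points are shSCR, red shBRG1 and blue shMITF. The red points lie above 0 in nearly all genes, while the blue points lie mostly below 0 and scatter widely, and overlap with red is seen at the right among the genes that were not called.

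Secreted inflammatory factors were the next list with a high share of called members. Of 26 cytokines and chemokines, 13 passed the filter on low counts, 9 were higher with shBRG1 and 1 was lower, with a median log2 difference of 2.08. The filter favours genes expressed in at least 1 group, so the 13 are not the whole list. The list also does not hold every chemokine. CXCL13, which is outside it and described below, was lower with shBRG1 (log2 difference -3.62, adjusted p = 0.024). IL6 was at 56.9, 58 and 59 CPM with shBRG1, 7.74, 4.58 and 12 CPM with shMITF and 1.85, 1.5 and 1.58 CPM with shSCR, so that both knockdowns lay above shSCR and shBRG1 was highest (log2 difference 2.84, SE 0.311, adjusted p = 0.0024). CXCL8, a neutrophil attractant, was at 89.4, 104 and 98.8 CPM with shBRG1, 33.4, 11.4 and 16.2 CPM with shMITF and 43.6, 44.6 and 45.6 CPM with shSCR (log2 difference 2.25, SE 0.357, adjusted p = 0.008). CXCL1, which acts on the same receptor, was at 405, 414 and 405 CPM with shBRG1, 147, 63.5 and 63.3 CPM with shMITF and 225, 239.7 and 241 CPM with shSCR (log2 difference 2.16, SE 0.329, adjusted p = 0.0074). For CXCL8 and CXCL1 the control lay between the knockdowns. LIF (2.08, adjusted p = 0.0015) and the macrophage growth factor CSF1 (1.04, adjusted p = 0.0022) were also higher, as were CXCL2 (2.18), IL33 (1.51) and CXCL12 (3.81). CXCL10, an interferon-induced attractant of T cells, had 138 counts over the shBRG1 libraries, 0 over the shMITF libraries and 24 over shSCR. Taking 3 counts over the group as the floor, it was at least 28.6-fold higher with shBRG1. IL24 went the other way, at 42, 46.5 and 46 CPM with shBRG1 and 180.2, 93.7 and 196 CPM with shMITF (log2 difference -1.8, SE 0.259, adjusted p = 0.0059). CXCL2 lost its adjusted p under 0.05 without shBRG1 replicate 2 or shBRG1 replicate 3 (adjusted p up to 0.057). IL33 and CXCL12 lost their adjusted p under 0.05 without any 1 of the 3 shBRG1 libraries (adjusted p up to 0.094).

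Growth factors were called mostly in the other direction. Of 31 tested, 1 was higher with shBRG1 and 4 were lower, with a median log2 difference of -0.42. ANGPTL4, a secreted inhibitor of lipoprotein lipase, was at 1.33, 1.72 and 1.42 CPM with shBRG1, 49, 11.4 and 28.2 CPM with shMITF and 0.746, 0.502 and 0.728 CPM with shSCR (log2 difference -4.3, SE 0.513, adjusted p = 0.0032). TGFA, a ligand of the EGF receptor, was at 2.4, 1.53 and 2.23 CPM with shBRG1, 18.7, 10.6 and 11.7 CPM with shMITF and 2.07, 1.09 and 2.18 CPM with shSCR (log2 difference -2.74, SE 0.29, adjusted p = 0.0022). FGF7 was at 11.7, 10.5 and 12.2 CPM with shBRG1 and 49.2, 26.9 and 48.6 CPM with shMITF (-1.86, adjusted p = 0.004), and PDGFA was at 1.31, 2 and 1.18 CPM with shBRG1 and 8.22, 4.01 and 3.59 CPM with shMITF (-1.81, adjusted p = 0.021). For all 4 the shMITF libraries lay above every shBRG1 library and above every shSCR library. KITLG, which encodes stem cell factor, the ligand of KIT, was higher with shBRG1 at 25.8, 24 and 24.5 CPM with shBRG1 and 16.8, 9.34 and 7.29 CPM with shMITF (1.15, adjusted p = 0.035). CCN1 was at 73.4, 65.7 and 69.7 CPM with shBRG1 and 779, 147 and 31.5 CPM with shMITF, with the shMITF libraries on both sides of shBRG1, and was not called (-2.2, adjusted p = 0.16). PDGFA lost its adjusted p under 0.05 without any 1 of the 3 shBRG1 libraries (adjusted p up to 0.11). KITLG lost its adjusted p under 0.05 without any 1 of the 3 shBRG1 libraries and also without shMITF replicate 2 or shMITF replicate 3 (adjusted p up to 0.13).

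The p53 targets leaned towards shBRG1. All 24 were tested, 9 were higher with shBRG1, none was lower and 23 had a positive difference, with a median log2 difference of 0.72. Over all tested genes, 7914 of 16927 had a positive difference. p53 induces cell cycle inhibitors, death receptors and redox enzymes after DNA damage and other stresses. TP53I3, a quinone oxidoreductase, was at 212, 177 and 181 CPM with shBRG1, 41.6, 35.1 and 42 CPM with shMITF and 63.7, 67.5 and 59.1 CPM with shSCR (log2 difference 2.26, SE 0.134, adjusted p = 0.00073). FDXR, the mitochondrial ferredoxin reductase, was at 199, 177 and 179 CPM with shBRG1, 53.9, 55.9 and 62.5 CPM with shMITF and 88.5, 98.6 and 86.2 CPM with shSCR (log2 difference 1.69, SE 0.117, adjusted p = 0.00098). FAS, the death receptor, was at 55.7, 50.7 and 52.7 CPM with shBRG1, 23.5, 17.7 and 13 CPM with shMITF and 48.3, 41.6 and 51.4 CPM with shSCR (1.55, adjusted p = 0.0046). TP53I3 and FDXR lay above shSCR with shBRG1 and below it with shMITF, while FAS lay near shSCR with shBRG1 and below it with shMITF. GDF15, a stress-induced cytokine, was at 12, 10.8 and 10.6 CPM with shBRG1, 1.69, 0.844 and 1 CPM with shMITF and 30.6, 31.8 and 27.3 CPM with shSCR. Here both knockdowns lay below shSCR and the shMITF libraries were lowest (log2 difference 3.23, SE 0.28, adjusted p = 0.0015). The kinase PLK3 (1.6, adjusted p = 0.0013), the antiproliferative BTG2 (1.48, adjusted p = 0.004), the receptor EDA2R (1.49, adjusted p = 0.0024), the BH3-only protein PMAIP1 (1.43, adjusted p = 0.0052) and SESN2, an inhibitor of mTORC1 (1.35, adjusted p = 0.0017), were also higher. The best known targets were not called: CDKN1A, which encodes p21, was at 1168, 1036 and 1047 CPM with shBRG1 and 1100, 549 and 782 CPM with shMITF (0.42, adjusted p = 0.29), and MDM2, which degrades p53, was at 346, 316 and 338 CPM with shBRG1 and 279.7, 351 and 269 CPM with shMITF (0.15, adjusted p = 0.5). No call among the 9 was lost without any 1 library.

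**Figure D3:**
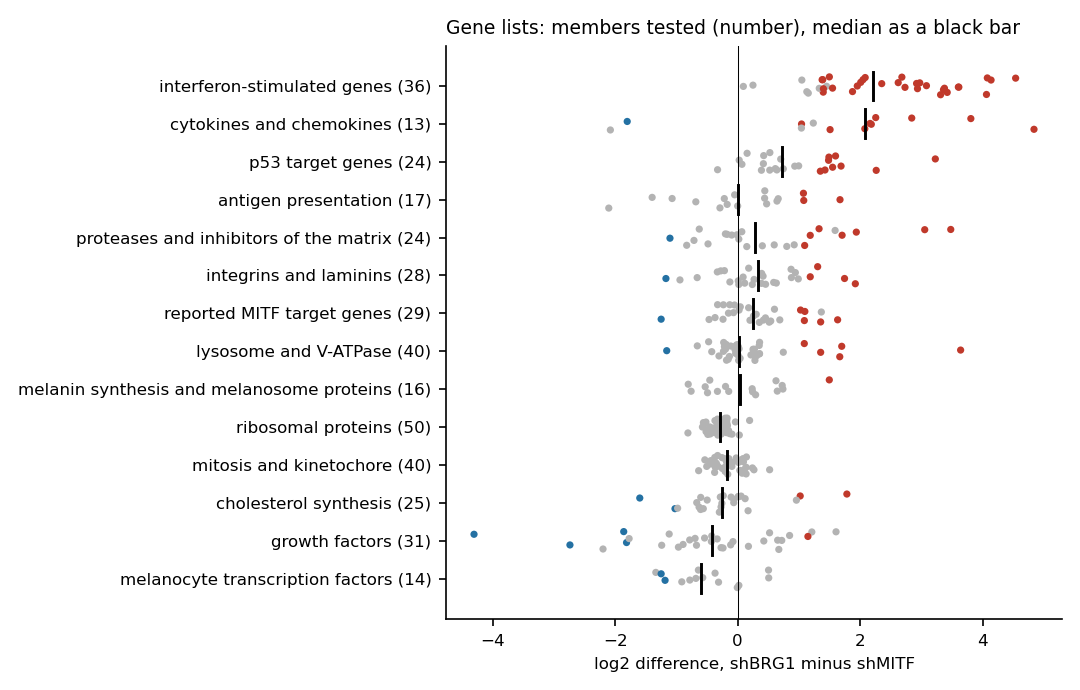
Log2 difference (shBRG1 minus shMITF) of every tested member of 14 gene lists, with the number tested in brackets; red points are called higher with shBRG1, blue points lower, grey points were not called, and black bars are medians. CXCL10 is drawn at its lower bound because it has no count with shMITF. The interferon-stimulated genes and the cytokines sit to the right, growth factors and melanocyte transcription factors lean to the left, and the ribosomal protein and mitosis genes cluster near 0.

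Melanin synthesis and melanosome genes gave 1 call between the knockdowns. All 16 were tested, 1 was higher with shBRG1 and none was lower, with a median log2 difference of 0.05. Over all tested genes, 3.73% were higher and 2.08% lower. In 11 of the 16 genes both knockdowns lay below every shSCR library, against 12.7% of all tested genes. TYR, the rate-limiting enzyme of melanin synthesis, was at 1008, 1013 and 966 CPM with shBRG1, 1476, 1263 and 2319 CPM with shMITF and 1936, 1908 and 1986 CPM with shSCR (-0.76, adjusted p = 0.069). TYRP1, which stabilises tyrosinase, was at 11757, 11714 and 11470 CPM with shBRG1, 18813, 16499 and 12592 CPM with shMITF and 27124, 27023 and 28679 CPM with shSCR (-0.46, adjusted p = 0.18). DCT, the dopachrome tautomerase, was at 2.1, 2.26 and 2.1 CPM with shBRG1, 4.35, 3.62 and 1.31 CPM with shMITF and 20.6, 19.4 and 22 CPM with shSCR (-0.53, adjusted p = 0.41). None of these 3 enzymes was called, and TYR and TYRP1 were higher in every shMITF library than in any shBRG1 library. PMEL, the fibril protein of melanosomes, was at 14259, 14071 and 13538 CPM with shBRG1, 9735, 8232 and 7336 CPM with shMITF and 25802, 26910 and 25424 CPM with shSCR, with the shBRG1 libraries above those of shMITF at a difference short of the fold threshold (log2 difference 0.73, SE 0.187, adjusted p = 0.04). SLC24A5, the melanosomal cation exchanger, was at 358, 351 and 346 CPM with shBRG1 and 228, 209 and 246 CPM with shMITF, also short of that threshold (0.63, adjusted p = 0.015). The exchanger SLC24A4 was the called member, at 58.7, 56.7 and 58.1 CPM with shBRG1, 7.84, 30.5 and 23.3 CPM with shMITF and 53.5, 58.4 and 55.2 CPM with shSCR (1.5, adjusted p = 0.049). MLANA, another melanosome protein, was at 1430, 1477 and 1416 CPM with shBRG1 and 1289, 1371 and 1008 CPM with shMITF (0.24, adjusted p = 0.37). Of 30 genes of melanosome biogenesis and transport, MYRIP (2.91, adjusted p = 0.0062) and RAB17 (1.02, adjusted p = 0.0089) were higher and none was lower. SLC24A4 lost its adjusted p under 0.05 without any 1 of the 3 shBRG1 libraries and also without shMITF replicate 3 (adjusted p up to 0.15). RAB17 lost its adjusted p under 0.05 without shBRG1 replicate 2 or shBRG1 replicate 3 (adjusted p up to 0.055).

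Among 29 tested genes reported as MITF targets, 5 were higher with shBRG1 and 1 was lower, with a median log2 difference of 0.26. In 17 of them both knockdowns lay below every shSCR library, against 12.7% of all tested genes. MET, the receptor of hepatocyte growth factor, was at 768, 744 and 773 CPM with shBRG1, 213, 308 and 216 CPM with shMITF and 814, 799 and 855 CPM with shSCR. The shBRG1 libraries lay just below the shSCR libraries, and the shMITF libraries far below both (log2 difference 1.63, SE 0.177, adjusted p = 0.0023). CTSK, a collagen-degrading cathepsin, was at 989, 935 and 902 CPM with shBRG1, 493, 382 and 229.9 CPM with shMITF and 1476, 1462 and 1513 CPM with shSCR, with shBRG1 between shSCR and shMITF (log2 difference 1.35, SE 0.261, adjusted p = 0.015). BCL2A1, an inhibitor of apoptosis, was at 63.6, 69 and 64.3 CPM with shBRG1, 24.4, 30.7 and 41.6 CPM with shMITF and 113, 115 and 123 CPM with shSCR (1.03, adjusted p = 0.014), and the phospholipase PLA1A was at 31.1, 37.5 and 31.6 CPM with shBRG1, 17.6, 11.4 and 17.8 CPM with shMITF and 166, 181 and 176 CPM with shSCR (1.1, adjusted p = 0.012). Both were below shSCR in each knockdown and lowest with shMITF. GREB1 was at 277, 258 and 262 CPM with shBRG1, 92.7, 169 and 113 CPM with shMITF and 248, 264 and 236 CPM with shSCR (1.09, adjusted p = 0.016). TRPM1, the melastatin channel, was at 411, 448 and 415 CPM with shBRG1, 91.3, 325 and 77.8 CPM with shMITF and 1303, 1323 and 1355 CPM with shSCR, with shMITF replicate 2 much nearer to shBRG1 than replicates 1 and 3, and was not called (1.37, adjusted p = 0.11). The cell cycle kinase CDK2 was at 462, 468 and 454 CPM with shBRG1 and 224, 522 and 222 CPM with shMITF with the same replicate above shBRG1 (0.52, adjusted p = 0.32). IRF4, which cooperates with MITF at the TYR gene, was lower with shBRG1, at 82.2, 80.1 and 84 CPM with shBRG1, 134, 237 and 215 CPM with shMITF and 141, 126 and 127 CPM with shSCR (log2 difference -1.25, SE 0.206, adjusted p = 0.0091). The E-box CATGTG, read on both strands, was in the promoter window of 8 of 20 such genes (40.0%) and of 8 of 13 melanin and melanosome genes (61.5%), against 13.4% of all genes with a window and 10.1% of tested ones. Among genes higher with shBRG1 it was in 13.7%, and among the lower ones in 15.1%. CTSK, BCL2A1, PLA1A and IRF4 lost their adjusted p under 0.05 without any 1 of the 3 shBRG1 libraries (adjusted p up to 0.076). GREB1 lost its adjusted p under 0.05 without any 1 of the 3 shBRG1 libraries and also without shMITF replicate 3 (adjusted p up to 0.081).

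**Figure D4:**
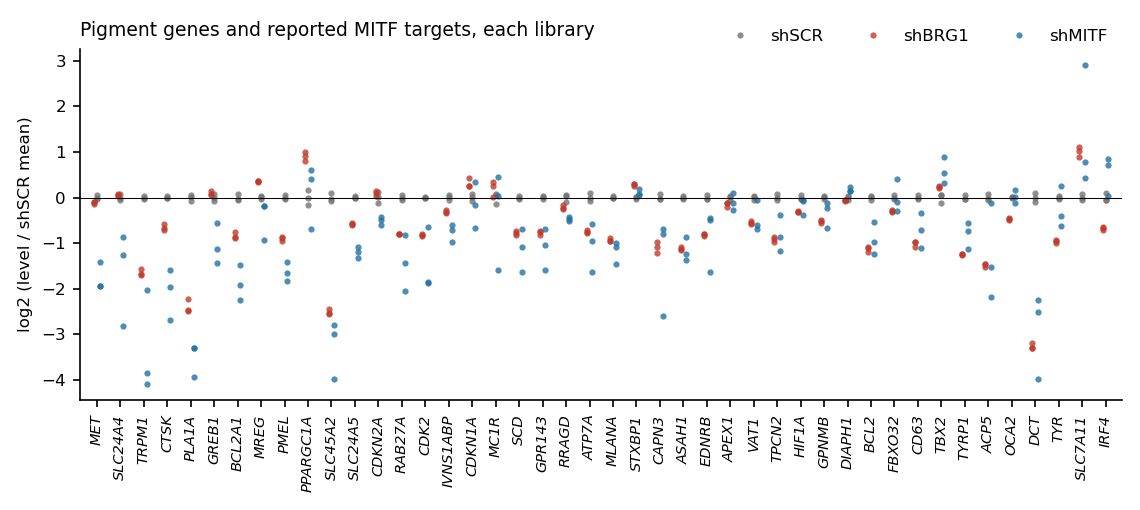
Levels of melanin, melanosome and reported MITF target genes in each library as log2 of the level over the shSCR mean, ordered by the difference between the knockdowns; grey points are shSCR, red shBRG1 and blue shMITF. Red and blue points both lie below 0 for most genes, MET stands at the left with the blue points far below the red ones, and SLC11A1 is left out for its low counts.

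The called melanocyte transcription factors were lower with shBRG1. Of 14 tested transcription factor genes none was higher with shBRG1 and 2 were lower, FOXD3 and IRF4, with a median log2 difference of -0.61. FOXD3, a neural crest factor, was at 27.2, 23.5 and 23.9 CPM with shBRG1, 49.97, 58.5 and 61.3 CPM with shMITF and 23.3, 24.3 and 20.6 CPM with shSCR, with shMITF above both other groups (log2 difference -1.19, SE 0.129, adjusted p = 0.0023). PAX3, an activator of the MITF promoter, was at 139, 144 and 143 CPM with shBRG1, 187, 269.7 and 206 CPM with shMITF and 142, 139 and 141 CPM with shSCR, and its difference did not reach the fold threshold (-0.64, adjusted p = 0.031). YY1, a zinc finger cofactor of MITF, was at 63.2, 65.7 and 67.1 CPM with shBRG1 and 114, 141 and 114 CPM with shMITF (-0.91, adjusted p = 0.0048), short of that threshold as well. SOX10, the other main activator of MITF, was at 479, 467 and 459.8 CPM with shBRG1, 396, 1211 and 649 CPM with shMITF and 623, 669.5 and 585 CPM with shSCR and was not called (-0.68, adjusted p = 0.24). The highest shMITF library for SOX10, PAX3, YY1 and IRF4 was replicate 2, the one with the most MITF RNA, while for FOXD3 it was replicate 3. SMARCA4 and SMARCA2 were highest in shMITF replicate 2 as well, so this order is not particular to these factors. A link to the MITF level was not tested. Of 18 receptors of melanocyte growth and state, MET was higher and the neurotrophin receptor NGFR lower. NGFR, a marker of neural crest-like cells, was at 15.1, 11.8 and 11.9 CPM with shBRG1, 29.4, 66.2 and 105 CPM with shMITF and 4.37, 3.98 and 4.33 CPM with shSCR (log2 difference -2.37, SE 0.41, adjusted p = 0.011). KIT was at 383, 384 and 388 CPM with shBRG1 and 414, 633 and 307 CPM with shMITF (-0.23, adjusted p = 0.57) and EDNRB at 118, 121 and 121 CPM with shBRG1 and 68.3, 150.3 and 155 CPM with shMITF (-0.05, adjusted p = 0.92), neither of them called. NGFR lost its adjusted p under 0.05 without any 1 of the 3 shBRG1 libraries (adjusted p up to 0.06).

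Lysosomal genes gave a few called members, most of them higher with shBRG1. Of 40 tested, 5 were higher with shBRG1 and 1 was lower, with a median log2 difference of 0.01, and 24 lay below every shSCR library in both knockdowns, against 12.7% of all tested genes. NPC1, which exports cholesterol from lysosomes, was at 413, 438 and 431 CPM with shBRG1, 112, 155 and 128 CPM with shMITF and 172, 170.4 and 169 CPM with shSCR (log2 difference 1.7, SE 0.149, adjusted p = 0.0015). CTSL, a cysteine protease, was at 1010, 1105 and 1044 CPM with shBRG1, 469, 235 and 290.2 CPM with shMITF and 586, 629 and 598 CPM with shSCR (1.67, adjusted p = 0.0073). For both the shBRG1 libraries lay above shSCR and those of shMITF below it. The V-ATPase subunit ATP6V0D2 was at 5.74, 5.65 and 5.29 CPM with shBRG1 and 0.269, 0.783 and 0.277 CPM with shMITF (3.64, adjusted p = 0.0026), and CTSK is described above. SQSTM1 (p62), the autophagy receptor, was lower with shBRG1, at 268, 277 and 266 CPM with shBRG1, 768, 597 and 443 CPM with shMITF and 451, 447 and 423 CPM with shSCR (-1.16, adjusted p = 0.011). SQSTM1 lost its adjusted p under 0.05 without any 1 of the 3 shBRG1 libraries (adjusted p up to 0.072).

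Cholesterol synthesis genes had a median log2 difference of -0.26, with 2 of 25 lower and 2 higher with shBRG1. All shBRG1 libraries lay below shSCR in 24 of the 25 genes, against 31.7% of all tested genes, and all shMITF libraries in 16, against 20.5%. SQLE, the squalene epoxidase, was at 76.8, 73.7 and 74.5 CPM with shBRG1, 157, 127 and 173 CPM with shMITF and 113, 113 and 121 CPM with shSCR (-1.02, adjusted p = 0.0045). INSIG1, which retains SREBP in the endoplasmic reticulum, was at 23.8, 20.9 and 20.9 CPM with shBRG1 and 37.6, 49.5 and 42.3 CPM with shMITF, just under the fold threshold (-0.98, adjusted p = 0.0058). The reductase TM7SF2 went the other way, at 16.4, 16.1 and 14.9 CPM with shBRG1, 7.47, 9.43 and 6.43 CPM with shMITF and 17.1, 20.2 and 16.1 CPM with shSCR (1.02, adjusted p = 0.0099). TM7SF2 lost its adjusted p under 0.05 without any 1 of the 3 shBRG1 libraries (adjusted p up to 0.069).

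Genes of the extracellular matrix and of cell contacts were called in both directions. Of 24 tested proteases and inhibitors of the matrix, 7 were higher and 1 was lower with shBRG1 (median 0.28). PLAT, the tissue plasminogen activator, was at 94.8, 90.03 and 89.7 CPM with shBRG1, 43.1, 26.1 and 40.02 CPM with shMITF and 63.7, 69.2 and 64.7 CPM with shSCR (1.33, adjusted p = 0.0055), and the aggrecanase ADAMTS5 was at 4.21, 4.74 and 4.76 CPM with shBRG1, 1.21, 1.63 and 0.726 CPM with shMITF and 1.15, 0.892 and 1.16 CPM with shSCR (1.94, adjusted p = 0.008). MMP11 (1.71), MMP8 (1.09), MMP9 (3.48), ADAMTS1 (1.19) and ADAMTS6 (3.05) were also higher, and MMP16 was lower (-1.1). Of 28 integrins and laminins, 4 were higher and 1 was lower (median 0.33). LAMB1, the laminin beta chain, was at 509, 495 and 502 CPM with shBRG1, 178, 167 and 263 CPM with shMITF and 259.8, 268 and 272 CPM with shSCR (1.31, adjusted p = 0.006), and LAMA4 was at 78.6, 83.8 and 84.3 CPM with shBRG1, 13.7, 25.4 and 26.1 CPM with shMITF and 42.7, 44.4 and 44.9 CPM with shSCR (1.92, adjusted p = 0.0036). For these laminins shSCR lay between the knockdowns or at the upper edge of shMITF. LAMC3 (1.75) and ITGA9 (1.19) were higher and LAMB3 lower (-1.17). MMP11, MMP8, MMP16 and LAMB3 lost their adjusted p under 0.05 without any 1 of the 3 shBRG1 libraries (adjusted p up to 0.076). MMP9, LAMC3 and ITGA9 lost their adjusted p under 0.05 without any 1 of the 3 shBRG1 libraries and also without shMITF replicate 3 (adjusted p up to 0.18). ADAMTS1 lost its adjusted p under 0.05 without any 1 of the 3 shBRG1 libraries and also without shMITF replicate 2 or shMITF replicate 3 (adjusted p up to 0.11). ADAMTS6 lost its adjusted p under 0.05 without shBRG1 replicate 2 or shBRG1 replicate 3 (adjusted p up to 0.072).

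Of 31 collagen genes, 4 were higher and 3 lower (median -0.04). COL19A1 was at 26.8, 27 and 26 CPM with shBRG1, 5.86, 8.16 and 8.43 CPM with shMITF and 12.4, 13.6 and 15.6 CPM with shSCR (1.83, adjusted p = 0.0016), and COL14A1 (1.26), COL4A5 (1.55) and COL23A1 (3.29) were higher too. COL9A3, a chain of cartilage collagen, was lower with shBRG1, at 6.63, 6.59 and 6.51 CPM with shBRG1 and 18.2, 36.9 and 138 CPM with shMITF (-3.29, adjusted p = 0.02), with 1 shMITF library far above the others. COL4A4 (-1.32) and COL8A1 (-1.12) were lower as well. Among 21 cadherins and protocadherins 4 were higher and 1 was lower (median 0.20). CDH1, the E-cadherin that holds melanocytes to keratinocytes, was at 27.7, 26.3 and 27.3 CPM with shBRG1, 1.88, 10.3 and 1.62 CPM with shMITF and 35.8, 38.4 and 36.1 CPM with shSCR. The shBRG1 level was slightly below shSCR, and shMITF replicates 1 and 3 were far lower than replicate 2 (2.55, adjusted p = 0.037). CDH19, a cadherin of the neural crest lineage, was lower with shBRG1, at 176, 151 and 166 CPM with shBRG1, 536, 299 and 452 CPM with shMITF and 91.7, 82.9 and 97.6 CPM with shSCR (-1.38, adjusted p = 0.0075). CDH10 had 74 counts with shBRG1 and 0 with shMITF, at least 15.8-fold higher against a floor of 3 counts over the group. CDH23 (2.53) and PCDHB15 (2.01) were the remaining higher members. COL4A5 lost its adjusted p under 0.05 without shBRG1 replicate 1 or shBRG1 replicate 2 (adjusted p up to 0.055). COL9A3 lost its adjusted p under 0.05 without any 1 of the 3 shBRG1 libraries (adjusted p up to 0.095). COL4A4 and CDH1 lost their adjusted p under 0.05 without any 1 of the 3 shBRG1 libraries and also without shMITF replicate 1 or shMITF replicate 3 (adjusted p up to 0.24). COL8A1 lost its adjusted p under 0.05 without any 1 of the 3 shBRG1 libraries and also without shMITF replicate 3 (adjusted p up to 0.19). CDH19 lost its adjusted p under 0.05 without shBRG1 replicate 2 (adjusted p up to 0.053). CDH10 and PCDHB15 lost their adjusted p under 0.05 without shBRG1 replicate 1 (adjusted p up to 0.052). CDH23 lost its adjusted p under 0.05 without shBRG1 replicate 1 or shBRG1 replicate 3 (adjusted p up to 0.084).

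Smaller lists gave a few members each. Several of these counts lie near the shares of all tested genes, 3.73% higher and 2.08% lower with shBRG1. Such counts are no result about a list. Of 24 contractile and SRF target genes, 3 were higher with shBRG1 (ACTA2 at 1.36, MYH10 at 1.14 and MYLK at 1.03) and none was lower. The smooth muscle actin ACTA2 was at 72.1, 65 and 62 CPM with shBRG1, 20.1, 33.8 and 23.5 CPM with shMITF and 28.9, 30.4 and 30.3 CPM with shSCR, so that shBRG1 lay above shSCR and shMITF at or around it. Of 30 WNT pathway genes, 2 were higher and 5 lower: the WNT target AXIN2 (-1.28), the receptors FZD6 (-1.73) and FZD8 (-1.62), the transcription factor TCF7 (-1.21) and the antagonist SFRP1 (-1.45) were lower, and DKK2 (2.01) and SFRP4 (3.45) were higher. FZD6 was at 17.4, 18.9 and 17.5 CPM with shBRG1, 67.8, 45.8 and 64.4 CPM with shMITF and 45, 40.4 and 48.6 CPM with shSCR, with shBRG1 below shSCR and shMITF within or above its range. Of 46 ephrin and guidance genes, PLXNC1 (1.16), ROBO1 (1.08) and EPHA4 (1.07) were higher and none was lower. Of 30 ATF4 and amino acid stress genes, CHAC1 (1.17), PSPH (1.03), ALDH1L2 (1.07) and SESN2 (1.35) were higher. Single members were called among glycolysis and hypoxia genes (ENO2, 1.04) and feedback regulators of MAPK (DUSP2, 1.13). Of 19 potassium channel genes KCNN2 was higher (1.2), and KCNJ10, an inward rectifier known from glia, was lower at 0.262, 0.211 and 0.219 CPM with shBRG1, 2.07, 2.41 and 3.11 CPM with shMITF and 2.39, 3.09 and 3.23 CPM with shSCR (-3.44, adjusted p = 0.0016). Of 16 tested replication-dependent histone genes, H2BC21 (1.09) and H2AC11 (1.07) were higher. MYH10, CHAC1 and DUSP2 lost their adjusted p under 0.05 without any 1 of the 3 shBRG1 libraries and also without shMITF replicate 3 (adjusted p up to 0.17). MYLK, PLXNC1, PSPH and H2BC21 lost their adjusted p under 0.05 without shBRG1 replicate 1 (adjusted p up to 0.057). AXIN2, FZD8, TCF7, SFRP1, SFRP4, EPHA4 and ALDH1L2 lost their adjusted p under 0.05 without any 1 of the 3 shBRG1 libraries (adjusted p up to 0.14). DKK2 lost its adjusted p under 0.05 without shBRG1 replicate 2 or shBRG1 replicate 3 (adjusted p up to 0.054). KCNN2 lost its adjusted p under 0.05 without any 1 of the 3 shBRG1 libraries and also without shMITF replicate 2 or shMITF replicate 3 (adjusted p up to 0.16). H2AC11 lost its adjusted p under 0.05 without any 1 of the 3 shBRG1 libraries and also without shMITF replicate 2 (adjusted p up to 0.18).

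Proliferation and housekeeping genes gave no called member between the knockdowns. None of 40 mitosis genes, 43 DNA replication genes, 18 G1 cyclin and CDK genes, 18 AP-1 and immediate early genes, 40 oxidative phosphorylation genes, 50 ribosomal protein genes, 12 SOX genes and 7 EMT transcription factor genes was called. Over all tested genes, 3.73% were higher and 2.08% lower, so the absence of a call in the shortest lists says little. Of the 40 mitosis genes, 39 lay below every shSCR library with shBRG1 (31.7% of all tested genes) and 33 with shMITF (20.5%), and their median log2 difference was -0.17. At an adjusted p under 0.05 with no fold threshold, 1 DNA replication gene was higher and 4 were lower, and 2 and 4 of the G1 list. The ribosomal protein genes had a median of -0.29, with 48 of 50 negative and 2 of them past the adjusted p alone. Over all tested genes, 9013 of 16927 were negative. The median log2 difference was -0.09 for the 3275 shortest genes and 0.04 for the 3274 longest. A link to gene length was not tested. In rising order, their summed level was 20758, 22329 and 31431 CPM with shMITF and 19893, 20847 and 21203 CPM with shBRG1. Thus 1 shMITF library stood far above the rest. A missed threshold does not show equal levels, given the spread of the shMITF libraries.

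Among single genes, the strongest differences included some that were almost silent in one knockdown. The 12 higher genes picked by size of difference, with at least 100 counts per sample in the higher group, were PEG3, MEG3, DRAXIN, IFIT1, CD24P4, MX1, MX2, ISG15, CLCA2, CXCL12, ATP6V0D2 and OASL. PEG3, a paternally expressed imprinted zinc finger gene, had 163, 137 and 114 counts with shBRG1 and no count in any shMITF or shSCR library. Against 3 counts over the group, PEG3 was at least 88.3-fold higher with shBRG1. MEG3, a maternally expressed long noncoding RNA, was at 6.93, 5.5 and 6.78 CPM with shBRG1, 0.0806, 0.361 and 0.0691 CPM with shMITF and 0.405, 0.334 and 0.321 CPM with shSCR (log2 difference 5.2, SE 0.505, adjusted p = 0.0019). These were the called members among 17 tested imprinted genes, whose median log2 difference was 0.46. DRAXIN, a secreted guidance protein, was at 8.96, 6.27 and 7.69 CPM with shBRG1, 0.161, 0.361 and 0.38 CPM with shMITF and 0.448, 0.864 and 0.492 CPM with shSCR (log2 difference 4.68, SE 0.345, adjusted p = 0.0011), and CLCA2, a chloride channel regulator, was at 5.04, 3.26 and 3.83 CPM with shBRG1, 0.295, 0.0904 and 0.449 CPM with shMITF and 0.597, 0.474 and 0.407 CPM with shSCR (3.87, adjusted p = 0.0034). In PEG3, MEG3, DRAXIN and CLCA2 every shBRG1 library lay above shSCR, and the shMITF libraries overlapped shSCR or, for DRAXIN, lay below it. CD24P4 is a pseudogene copy of CD24, and reads of the gene and its copy cannot be told apart, so no value is given.

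The 12 lower genes included TAC1, CYP1B1, ANGPTL4, GREM1, SERTAD4, CXCL13, COL9A3, CLDN14, KIF26B, NFATC2 and TGFA. TAC1, the precursor of substance P, was at 0.282, 0.146 and 0.197 CPM with shBRG1, 46.9, 2.65 and 7.15 CPM with shMITF and 0.064, 0 and 0.15 CPM with shSCR (log2 difference -6.5, SE 1.19, adjusted p = 0.013). CYP1B1, a cytochrome P450 induced through the aryl hydrocarbon receptor, was at 3.48, 2.37 and 3.65 CPM with shBRG1, 158, 14.6 and 57.8 CPM with shMITF and 0.554, 0.947 and 0.385 CPM with shSCR (log2 difference -4.61, SE 0.798, adjusted p = 0.011). GREM1, a secreted BMP antagonist, was at 0.503, 0.568 and 0.809 CPM with shBRG1, 17.9, 8.59 and 3.28 CPM with shMITF and 0.107, 0.0279 and 0.171 CPM with shSCR (log2 difference -3.99, SE 0.609, adjusted p = 0.0074). In these 3 genes every shMITF library lay above all others, and the libraries of that group differed widely from each other. The B cell attractant CXCL13 was at 1.37, 1.9 and 1.88 CPM with shBRG1 and 3.76, 15.2 and 44.6 CPM with shMITF (-3.62, adjusted p = 0.024), and the kinesin KIF26B was at 3.58, 3.75 and 4.09 CPM with shBRG1 and 19.3, 24.3 and 51.2 CPM with shMITF (-3.05, adjusted p = 0.0032). NFATC2, a calcium-regulated transcription factor, was at 2.56, 1.64 and 2.23 CPM with shBRG1 and 12.8, 6.08 and 24.1 CPM with shMITF (-2.74, adjusted p = 0.011), and SERTAD4 was at 0.544, 0.341 and 0.284 CPM with shBRG1 and 7.63, 3.01 and 7.91 CPM with shMITF (-3.98, adjusted p = 0.0029). CLDN14, a tight junction claudin, was at 0.584, 0.698 and 0.743 CPM with shBRG1, 3.04, 3.95 and 9.99 CPM with shMITF and 3.3, 3.82 and 3.66 CPM with shSCR, with shBRG1 below shSCR and shMITF across its range (-3.06, adjusted p = 0.0078). TAC1, CYP1B1, CXCL13 and NFATC2 lost their adjusted p under 0.05 without any 1 of the 3 shBRG1 libraries (adjusted p up to 0.11). CLDN14 lost its adjusted p under 0.05 without shBRG1 replicate 1 (adjusted p up to 0.053).

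The same question was put to 501Mel melanoma cells, where each knockdown has its own scramble group (shBRG1 against shSCR1 with 3 samples each, shMITF against shSCR2 with 2 each). The 501Mel value is the shBRG1 effect minus the shMITF effect, and it shares no sample with the Hermes 3A contrast. In 501Mel each knockdown lists as many genes as its scramble group, 42224 for shBRG1 and 41467 for shMITF. The Hermes 3A shMITF counts, with 34033 genes, have no scramble group with such a list. Any difference in how those counts were made would enter the difference between the lines and cannot be told apart from it. In 501Mel cells 2119 of 22654 genes (9.35%) were higher and 2990 (13.2%) lower by this difference of effects. Of the Hermes 3A genes higher with shBRG1, 631 were tested in 501Mel, where 122 (19.3%) were higher and 125 (19.8%) were lower. Of the Hermes 3A genes lower with shBRG1, 351 were tested, 9 (2.56%) were higher and 142 (40.5%) lower. SMARCA4 differed by -2.17 in 501Mel and -2.11 in Hermes 3A, while MITF differed by -0.43 and 0.42. The test of the difference between the lines did not call SMARCA4 (adjusted p = 0.79), and MITF passed its adjusted p (0.90, SE 0.245, adjusted p = 0.01).

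Testing the difference between the lines itself, 2904 genes (12.8%) were higher and 1655 (7.31%) lower in Hermes 3A. That split depends on the scaling, since library sizes in place of TMM gave 2219 higher and 2416 lower genes and moved the median of all genes from 0.01 to -0.21. Of the 36 interferon-stimulated genes, 25 were higher in Hermes 3A and none was lower, with either scaling. In 501Mel 2 of them were higher and 10 lower, with a median of -0.83, where Hermes 3A had 2.22. MX1 differed by -1.51 in 501Mel and by 4.14 in Hermes 3A, a difference of 5.69 (SE 0.61, adjusted p = 1.2e-05). STAT2 differed by -0.85 and 1.4 (difference 2.29, adjusted p = 5.3e-07). Of the 16 melanin and melanosome genes, 14 were lower by the 501Mel difference of effects (median -2.33) and none in Hermes 3A, and 13 were called between the lines (12 with library sizes). TYR differed by -4.45 in 501Mel and -0.76 in Hermes 3A (difference 3.72, SE 0.332, adjusted p = 3.8e-07). PMEL differed by -2.19 and 0.73 (difference 2.95, adjusted p = 1.4e-07). Of the 24 p53 targets 7 were higher and 1 lower in 501Mel, and 8 were higher and 1 lower in Hermes 3A by the test between the lines. TP53I3 was higher in both lines, by 2.01 and 2.26, and did not differ between the lines at the threshold (adjusted p = 0.7).

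**Figure D5:**
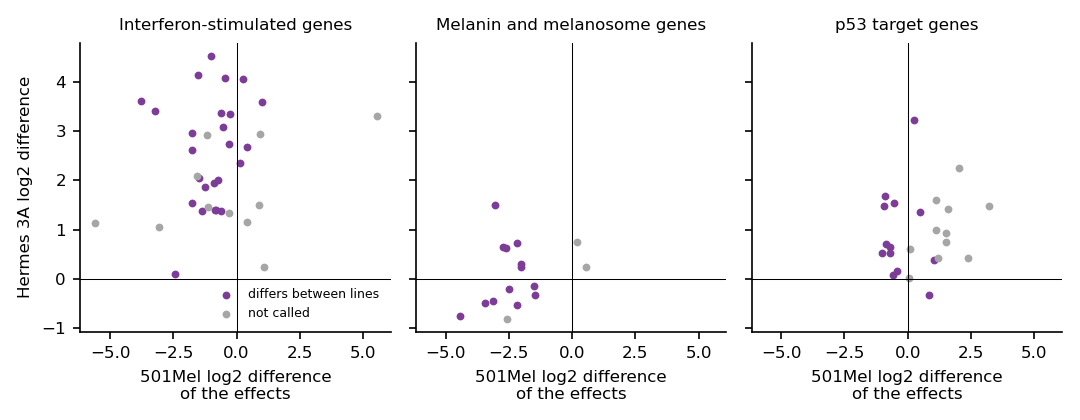
Log2 difference of shBRG1 and shMITF in Hermes 3A (vertical axis) against the difference of the 2 knockdown effects in 501Mel (horizontal axis) for the tested members of 3 lists; purple points have an adjusted p under 0.05 for the difference between the lines. The interferon-stimulated genes lie high in Hermes 3A and mostly around or left of 0 in 501Mel, and the melanin genes lie near 0 in Hermes 3A and mostly far left in 501Mel.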

How the data were processed

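The values the authors deposited are raw counts of reads on each Ensembl gene, 1 set per sample, from libraries of ribosomal RNA-depleted total RNA with a nuclease step that compresses the most abundant transcripts. The submitters' processing notes name CASAVA 1.8, TopHat 1.4.1, Bowtie 0.12.7 and hg19. The counting program and the annotation are not given in the sources used here, nor is whether counting used strand. No normalization shows in the counts.

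Genes listed for both groups were fitted in edgeR 4.0.16 on R 4.3.3 (filterByExpr, TMM, robust glmQLFit, glmQLFTest) with the 6 samples alone and Benjamini-Hochberg adjustment over 16927 genes. A call needed an adjusted p under 0.05 and an absolute log2 difference over 1. The residual degrees of freedom were 4 and the common biological coefficient of variation 21.6%. The standard error is the log2 difference divided by the square root of F. The shSCR libraries were put on the same TMM scale through the same reference library and not tested. The difference between lines was a contrast in 1 fit of 16 samples. CPM values count reads and are not corrected for gene length, so levels are compared within a gene. Symbols came from a table of gene names (40913 of 44717 identifiers) and GENCODE 29 (217 more). Promoter sequences are RefSeq's on GRCh38.p14.

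Genes named are SMARCA4, MITF, the 12 largest called differences in each direction (symbol known, at least 100 counts per sample in the higher group, no overlap between groups) and members of the lists. The members and lists were chosen with earlier results of these data known. Simulated counts with 200 genes changed by a log2 fold of 2 gave 193 of them back and 7 false calls. The run held 16540 genes, the changed ones included. Only genes above a minimum mean count were changed, and both groups were drawn with the same spread, unlike these data. The simulation therefore does not show how the test behaves when the groups differ in spread. No libraries agreed within sampling noise. The alternatives were DESeq2 1.42.0, library sizes, no filter, a minimum of 10 counts in each library, a block for the replicate number, all 9 Hermes 3A samples, limma 3.58.1 with sample weights, glmTreat, adjusted p alone and each library left out. Leaving out each library in the test between lines was added after seeing the data. Values of some genes of the lists are not reported here.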

Additional observations from a re-analysis of the deposited data

Results flagged for a closer look

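Among SMARCA4, MITF and the genes picked by the size of their difference, CD24P4 aside, 11 had a shBRG1 against shMITF difference that itself differed between Hermes 3A and 501Mel cells at an adjusted p under 0.05 in edgeR. The genes picked by size had large Hermes 3A differences, and the test between the lines reuses the same Hermes 3A libraries. This selection favours a difference between the lines. Of all called genes tested in 501Mel, 356 of 631 higher ones (56.4%) and 123 of 351 lower ones (35.0%) passed as well. The 11 are therefore no sign that the picked genes are unlike other called genes. MITF differed by 0.90 (adjusted p = 0.01), with 0.42 in Hermes 3A and -0.43 in 501Mel. The 5 interferon-stimulated genes were IFIT1 at 5.57 (adjusted p = 0.00057), MX1 at 5.69 (adjusted p = 1.2e-05), MX2 at 4.6 (adjusted p = 0.00081), ISG15 at 3.82 (adjusted p = 0.012) and OASL at 7.41 (adjusted p = 0.0003), with 501Mel values of -0.99, -1.51, -0.47, 0.27 and -3.76. MEG3 differed by 3.98 (adjusted p = 0.004), with 5.2 in Hermes 3A and 1.27 in 501Mel. DRAXIN differed by 4.66 (adjusted p = 8.2e-05), with 0.06 in 501Mel. In the other direction, ANGPTL4 differed by -7.18 (SE 2.48, adjusted p = 0.041), being -4.3 in Hermes 3A and 2.9 in 501Mel, SERTAD4 by -3.56 (adjusted p = 0.0026) and CLDN14 by -3.27 (adjusted p = 0.0017). In 501Mel alone, MX1 (adjusted p = 0.038) and OASL (adjusted p = 0.013) passed. IFIT1, MX2, ISG15, MEG3, DRAXIN, ANGPTL4, SERTAD4 and CLDN14 did not (adjusted p = 0.25 to 0.99). The 501Mel values of these genes that did not pass are no evidence of an opposite effect there.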

How the results depend on the processing

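Between shBRG1 and shMITF in Hermes 3A, no gene named by rule changed the sign of its log2 difference under any alternative run. The balance of genes between the lines turned with library sizes in place of TMM, from 2904 higher and 1655 lower to 2219 higher and 2416 lower, with the median of all genes going from 0.01 to -0.21. Demanding a log2 difference of over 1 by glmTreat left 95 genes higher and 32 lower with shBRG1, including 13 interferon-stimulated genes, 4 p53 targets and 3 cytokines. The adjusted p alone gave 1246 higher and 1168 lower genes. The cause of these moves is the stricter or looser criterion itself. With 1 library left out, the higher genes numbered 246 to 834, the lower ones 117 to 474, the interferon-stimulated genes 21 to 31, the p53 targets 9 to 13 and the cytokines 6 to 10. SMARCA4 stayed between -2.29 and -1.94 and MITF between 0.28 and 0.63, and MITF passed its adjusted p with limma's sample weights (0.43, adjusted p = 0.027) and without shMITF replicate 2 (0.63, adjusted p = 0.018). The cause of these moves was not tested. DESeq2 gave 762 higher and 460 lower genes, and 1 fit of all 9 Hermes 3A samples 847 and 493. In the difference between the lines, leaving out 1 of the 16 libraries, an alternative chosen after seeing the data, gave 2577 to 3217 higher and 1355 to 1948 lower genes. With a replicate block there were 698 and 329 genes in the contrast and 2944 and 1533 between the lines. Samples with the same number correlated at -0.06, -0.08 and 0.13 in their deviations from the group means, so the numbers were not taken to pair the samples. Of 137 called genes named by rule, 136 of 137 kept an adjusted p under 0.05 in DESeq2, 126 of 137 under the block and 76 to 134 of 137 with 1 library left out.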
